A study of Homo sapiens with 12 samples.

Results

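The comparison of siGlut1 with non-silencing siRNA in high glucose set 3 libraries of human brain microvascular endothelial cells against 2, which are 5 of the 12 samples of the series. The members were taken by their labels: the knockdown libraries numbered 1, 2 and 3, written G1, G2 and G3 here, and the non-silencing libraries numbered 1 and 3, written N1 and N3. The column numbered 2 of the non-silencing group in high glucose equals the mean of numbers 1 and 3 in 23397 of 23398 entries and was left out. SLC2A1, the targeted gene, encodes the glucose transporter Glut1.

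Brain microvascular endothelium lines the capillaries of the brain and forms the blood-brain barrier, and Glut1 is its main facilitative carrier for glucose. Glucose that enters these cells feeds glycolysis, the pentose phosphate pathway, which supplies reducing power against oxidants, and the sugar donors for glycosylation. Endothelium also answers to interferons through STAT factors and to cytokines through NF-kB, and these pathways set which antiviral, adhesion and chemokine genes it makes.

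All cells were bought from a supplier, kept in its complete growth medium and transfected with siRNA for 48 h. The treated group carried siGlut1 in high glucose (n = 3), and its control carried a non-silencing siRNA in high glucose (n = 2). The remaining samples carried either siRNA without high glucose and are called control glucose here (n = 3 each). The glucose concentrations, the siRNA sequences and whether replicates came from separate cultures are unstated in the labels, so the p-values speak to the spread among these libraries alone, part of which may be technical. The labels list a TruSeq stranded mRNA kit and a SMARTER kit without assigning them to libraries, so the part of the kit was not tested.

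Total counts over genes were 47548382 and 49686182 in N1 and N3, and 48652800, 58554674 and 90536476 in G1, G2 and G3. Levels are given as CPM, counts scaled to the size of the library. The endothelial label was checked on 14 markers, all at 1 CPM or more: CDH5 (VE-cadherin) averaged 1691 CPM over the 5 libraries and VWF 1493 CPM. The summed level of the 14 was 7886 to 8011 CPM with non-silencing siRNA and 7803 to 9273 CPM with siGlut1. In the list of pericyte and smooth muscle markers, PDGFRB, KCNJ8, CSPG4, DES and MYH11 were under 1 CPM while RGS5 and ANPEP were high, at means of 2077 and 1602 CPM. The list summed to 3704 to 3838 CPM against 3423 to 3780 CPM. Leukocyte markers other than CD68, and astrocyte markers other than GJA1, were also under 1 CPM, and AIF1, P2RY12, CD3E, AQP4, SLC1A2, S100B, AGT, MOG, OLIG2, SOX10 and CDH1 had 0 counts in all 5 libraries. CD68 ranged from 45.5 to 60.6 CPM and GJA1 from 357 to 445 CPM. The oligodendrocyte marker CNP, at 159 to 212 CPM, and the lymphatic marker LYVE1, at 97.7 to 186 CPM, were present. Of the fibroblast markers PDGFRA, DCN, LUM, COL1A1 and DPT were under 1 CPM, while COL1A2 ranged from 8.69 to 37.1 CPM, FAP from 2.92 to 4.54 CPM and COL3A1 from 0.998 to 2.13 CPM, and the list summed to 15.4 to 24.3 CPM with non-silencing siRNA and 23.4 to 45.9 CPM with siGlut1. Of the epithelial markers EPCAM was under 1 CPM and KRT5 and KRT14 were at 0, while the keratins KRT18 (231 to 286 CPM), KRT7 (29.1 to 69.4 CPM), KRT19 (33.6 to 55.4 CPM) and KRT8 (9.35 to 14.6 CPM) were present. Of the 2 with most counts, KRT18 gave -0.19 (adjusted p = 0.183) and KRT7 gave 0.83 (adjusted p = 0.0628; 0.89, adjusted p = 0.0451 with the length trend described below removed). The part of such cells in the results was not tested. In bulk RNA, fewer cells of a kind and less of a transcript per cell cannot be told apart.

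The knockdown of SLC2A1 was seen in every library. Its level was 21.2 and 20.7 CPM in N1 and N3, and 7.09, 7.19 and 6.38 CPM in G1, G2 and G3. The groups did not overlap, and SLC2A1 fell by 1.61 ± 0.14 SE on the log2 scale (adjusted p = 0.000888). Adjusted p-values throughout come from edgeR (quasi-likelihood test, Benjamini-Hochberg adjustment) over all 14324 genes tested, and a gene is said to have risen or fallen where that p was under 0.05.

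With siGlut1, 354 genes rose (2.47% of those tested) and 235 fell (1.64%), 589 or 4.11% in all. The counts of each gene list below are to be read beside these shares. The groups did not overlap for any of the 589, which alone says little, since the same held for 44.5% of all genes tested (22.6% higher and 22% lower). Most changes were modest, with a median absolute log2 fold change of 0.52. At least 2-fold changes were found for 65 genes that rose and 25 that fell, 0.628% of the genes tested. Both non-silencing libraries carried the count: 20 genes rose and 11 fell without N1, and 2 rose and 4 fell without N3. Without G1, G2 or G3 the numbers were 167 and 94, 91 and 39, and 114 and 47. The 117 named genes past the threshold include KIT, CDH6, GDF6, EPHA5 and LRRC4, singled out below. Among them, 59, 41 and 46 kept their calls without G1, G2 and G3. SLC2A1, XYLT2, NQO1, SLC50A1, PODXL and ALPK3 kept theirs in all 5 of these runs, and none of the 117 changed sign in them.

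**Figure D1:**
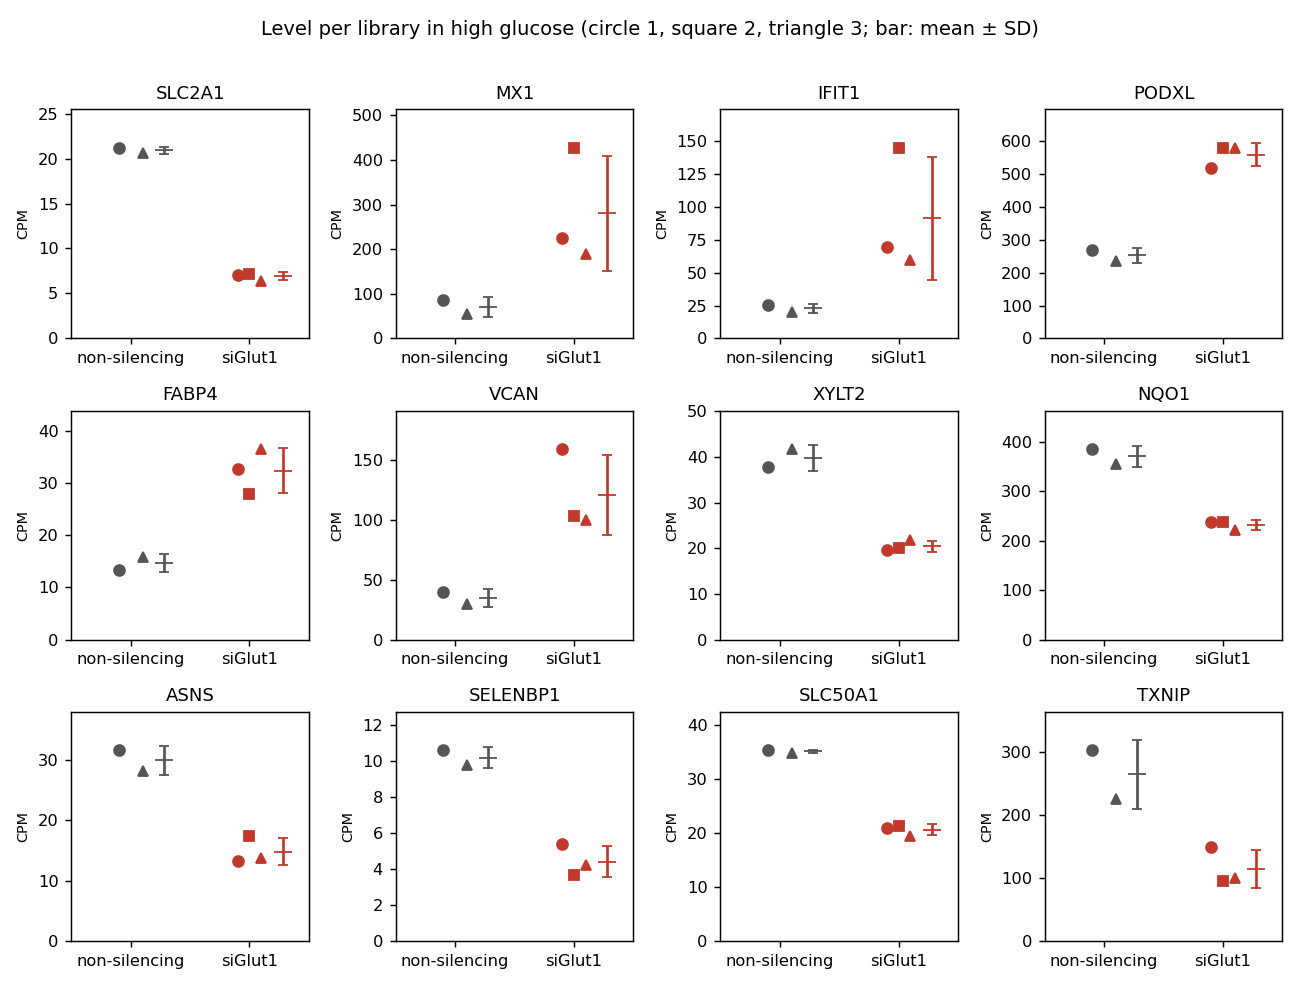
Level in CPM (linear axes from 0) of 12 genes in the 5 high-glucose libraries. Grey points are non-silencing libraries and red points siGlut1 libraries, with circles for number 1, squares for 2 and triangles for 3, and bars show the mean ± SD. SLC2A1 lies at 21.2 and 20.7 CPM against 6.38 to 7.19 CPM, and the spread within siGlut1 is widest for the interferon-induced MX1 and IFIT1, where number 2 is highest.

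Among the genes that rose with the smallest p-values, PODXL stood first. It encodes podocalyxin, a sialylated surface glycoprotein of the endothelial glycocalyx. PODXL (chr7:131185021-131241376, hg19) was at 269 and 236 CPM in N1 and N3 and at 518, 581 and 578 CPM in G1, G2 and G3. The 3 siGlut1 libraries lay close together and far above both controls, a rise of 1.15 ± 0.11 SE (adjusted p = 0.00153). BICD2, an adaptor of the dynein motor, rose from 49.4 and 47.5 CPM to 80.2, 81.7 and 88.4 CPM (0.78 ± 0.08 SE). MICAL2, an oxidase that disassembles actin filaments, rose by 0.87 ± 0.09 SE, the palmitoyltransferase ZDHHC18 by 0.73, the gamma-secretase subunit APH1B by 0.71 and the kinase ALPK3 by 0.74. The ALPK3 transcript is long (10917 bases), and its rise was 0.55 (adjusted p = 0.0296) with the length trend removed.

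Outside the interferon response, the largest rises among genes of at least 2 CPM included matrix and guidance genes. VCAN, which encodes the large matrix proteoglycan versican (chr5:82767493-82878122, hg19), was at 40.2 and 29.6 CPM with non-silencing siRNA and at 159, 104 and 100 CPM with siGlut1. G1 was the highest library, and the rise was 1.79 ± 0.41 SE (adjusted p = 0.0353). RELN, the secreted glycoprotein reelin, was at 14.1 and 20.2 CPM against 50.5, 72.3 and 48 CPM and rose by 1.73 ± 0.29 SE (adjusted p = 0.0118). UNC5C, a receptor for netrins, rose from 2.17 and 1.22 CPM to 6.84, 6.47 and 5.67 CPM (1.90 ± 0.42 SE), and HSD17B2, which inactivates sex steroids, rose by 1.75 ± 0.43 SE. Groups without overlap were a condition for naming these genes. The transcripts of VCAN, RELN and UNC5C are long, at 12416, 11571 and 9878 bases. With the length trend described below removed, their rises were 1.56, 1.51 and 1.73 (adjusted p = 0.0379, 0.00996 and 0.0347). HSD17B2, of 1434 bases, gave 1.83 there (adjusted p = 0.0461).

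A further 5 genes were singled out after their values were seen. KIT, the receptor for stem cell factor, was at 14.9 and 9.56 CPM against 44.3, 34.6 and 35 CPM and rose by 1.64 ± 0.34 SE (adjusted p = 0.0256). CDH6, a cadherin, rose by 1.34, GDF6, a ligand of the BMP family, by 1.38, the ephrin receptor EPHA5 by 1.30 and the synaptic adhesion protein LRRC4 by 1.34. GPT, an alanine aminotransferase also picked for its value, had 0 counts in both non-silencing libraries and 0.25, 0.241 and 0.199 CPM with siGlut1, so that its fitted fold depends on the prior count and is not used here.

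Among genes of at least 2 CPM, the falls next in size to SLC2A1 were spread over metabolism, detoxification and cell death. ABAT, which degrades the transmitter GABA (chr16:8768444-8878432, hg19), was at 6.17 and 4.5 CPM with non-silencing siRNA and at 2.13, 2.07 and 1.66 CPM with siGlut1. It fell by 1.46 ± 0.25 SE (adjusted p = 0.012). PHLDA2, an imprinted regulator of growth, was at 12 and 20.5 CPM against 6.3, 8.16 and 7.29 CPM, with its controls far apart, and fell by 1.17 ± 0.19 SE. XYLT2, which adds the first xylose to proteoglycan core proteins (chr17:48423393-48438512, hg19), was at 37.7 and 41.8 CPM against 19.6, 20 and 21.8 CPM and fell by 0.96 ± 0.08 SE (adjusted p = 0.000888). SLC50A1, a sugar transporter of the SWEET family, was at 35.4 and 35 CPM against 21.1, 21.4 and 19.6 CPM and fell by 0.77 ± 0.08 SE (adjusted p = 0.00162). FAHD2B fell by 1.12, but it has a near-identical copy, and reads of RPL17, which fell by 0.75, may be shared with processed copies, so both are uncertain.

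Interferon-induced antiviral effectors were 8 of the 12 largest rises among genes of at least 2 CPM. Of 49 such genes tested, 16 rose and 0 fell, against 2.47% and 1.64% of all genes, and 44 lay above 0 on the log2 scale, the list's median at 0.61 beside -0.00048 for all genes tested. The groups did not overlap, siGlut1 above, for 36 of the 49, against 22.6% of all genes tested. The size of the response differed between siGlut1 libraries: G2 was the highest of the 5 libraries for 46 of the 49 genes, and N3 was the lowest for 39.

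MX1, a GTPase that traps viral nucleocapsids (chr21:42792520-42831141, hg19), was at 87 and 54.5 CPM in N1 and N3 and at 224, 428 and 189 CPM in G1, G2 and G3. MX2, its relative that acts on retroviruses, was at 2.63 and 1.58 CPM against 12.5, 31.3 and 6.14 CPM. For both genes G2 was the highest library and G3 the lowest of its group, still above both controls, and the rises were 1.99 ± 0.33 and 2.98 ± 0.58 SE (adjusted p = 0.0114 and 0.0213). IFIT1, which binds viral RNA caps, was at 25.2 and 20.5 CPM against 69.2, 145 and 59.8 CPM. IFITM1, which hinders viral entry at membranes, was at 15.6 and 7.9 CPM against 41.5, 85.3 and 21.1 CPM, with G3 the nearest to the controls. RSAD2 (viperin), which makes an antiviral nucleotide, was at 3.25 and 1.74 CPM against 12.3, 29.7 and 8.24 CPM, and its neighbour CMPK2 at 3.29 and 2.13 CPM against 12, 27.9 and 8.17 CPM. The order of the siGlut1 libraries was the same in all 6 genes, 2 above 1 above 3.

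ISG15, a ubiquitin-like modifier, was at 64.2 and 72.1 CPM against 145, 309 and 165 CPM and rose by 1.60 ± 0.29 SE. IFI44L rose by 1.70, XAF1, which antagonises inhibitors of apoptosis, by 1.70, IFI6 by 1.43, EPSTI1 by 1.31, IFI27 by 1.24, HERC6 by 1.23, IFIT5 by 1.22, the ISG15-conjugating enzyme UBE2L6 by 0.72 and the RNA-editing enzyme ADAR by 0.53. Those 10 and the 6 above are all 16 that passed the threshold. Members short of it included IFIT3 (1.12, adjusted p = 0.0553) and BST2 (1.06, adjusted p = 0.0787), and the guanylate-binding GBP2 had the lowest value, -0.37. IFIT, IFITM and MX genes resemble their relatives in sequence, and how their shared reads were counted is unstated. The 16 became 3 without N1, 0 without N3, 9 without G2, 13 without G1 and 18 without G3, with medians of 0.69, 0.50, 0.40, 0.66 and 0.73.

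**Figure D2:**
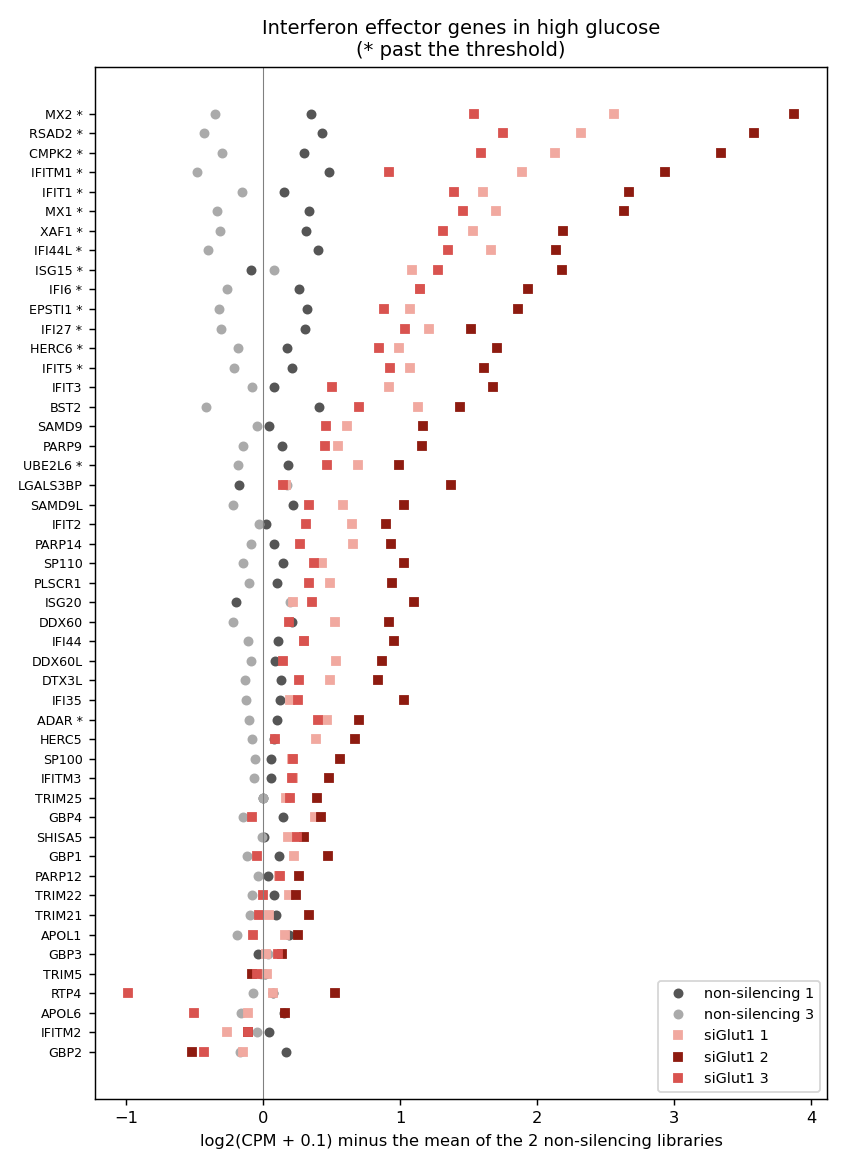
log2(CPM + 0.1) of the 49 interferon effectors in each high-glucose library minus the mean of the 2 non-silencing libraries, with genes ordered by their difference and an asterisk on those past the threshold. The dark red squares of G2 lie furthest to the right for nearly all genes, and the light grey circles of N3 furthest to the left.

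The promoters of these genes are shown because interferon acts on them through a short element that STAT and IRF factors bind, the interferon-stimulated response element. GAAA followed after any 2 bases by GAAA was searched on both strands in 250 bases before and 50 after each annotated start (RefSeq, GRCh38.p14). Of the 49 effectors, 42 had a promoter in that table, and 29 of them (69%) held the letters, as did 9 of 15 effectors that rose (60%). The share was 3.57% of all promoters of the same length, 2.96% of the tested genes with a promoter, 8.27% of the genes that rose and 2.33% of those that fell. Below are 4 of the effectors with the largest rises that held a match, 5′ to 3′ in the direction of the gene with matches in capitals: IFITM1 (chr11:313790-314089 on the plus strand), IFIT1 (chr10:89392373-89392672 on the plus strand), MX1 (chr21:41420308-41420607 on the plus strand) and IFI44L (chr1:78620198-78620497 on the plus strand). Matches begin 40 and 6 bases before the start of IFITM1, 116 and 103 before that of IFIT1, 164 and 73 before that of IFI44L, and 11 bases after that of MX1. Those of IFIT1 lie on the opposite strand. A match describes letters and not a bound site. No match was found in this window for RSAD2, CMPK2 or XAF1.
IFITM1: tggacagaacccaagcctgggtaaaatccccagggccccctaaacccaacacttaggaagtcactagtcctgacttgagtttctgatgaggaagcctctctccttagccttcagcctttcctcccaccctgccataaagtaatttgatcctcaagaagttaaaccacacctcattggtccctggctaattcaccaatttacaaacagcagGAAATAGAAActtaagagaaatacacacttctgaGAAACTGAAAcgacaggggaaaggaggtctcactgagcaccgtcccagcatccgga
IFIT1: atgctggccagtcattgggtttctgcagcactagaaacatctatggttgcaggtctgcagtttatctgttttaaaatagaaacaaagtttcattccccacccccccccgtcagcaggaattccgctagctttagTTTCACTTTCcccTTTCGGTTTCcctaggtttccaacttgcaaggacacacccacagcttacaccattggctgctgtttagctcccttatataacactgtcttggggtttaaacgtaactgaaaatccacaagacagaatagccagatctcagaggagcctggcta
MX1: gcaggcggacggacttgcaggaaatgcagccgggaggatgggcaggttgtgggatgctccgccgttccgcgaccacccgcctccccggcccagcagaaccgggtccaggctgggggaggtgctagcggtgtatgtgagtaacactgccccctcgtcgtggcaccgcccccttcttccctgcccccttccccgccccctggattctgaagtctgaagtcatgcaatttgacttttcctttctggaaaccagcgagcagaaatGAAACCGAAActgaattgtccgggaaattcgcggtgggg
IFI44L: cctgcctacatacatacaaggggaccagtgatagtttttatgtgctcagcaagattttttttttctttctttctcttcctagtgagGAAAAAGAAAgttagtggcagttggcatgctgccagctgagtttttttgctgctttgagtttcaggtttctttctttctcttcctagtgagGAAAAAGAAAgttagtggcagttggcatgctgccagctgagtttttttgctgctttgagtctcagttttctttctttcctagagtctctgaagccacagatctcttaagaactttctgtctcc

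Of 18 genes of nucleic acid sensing tested, 4 rose and 1 fell, against 2.47% and 1.64% of all genes, with a median of 0.26. OAS2, which makes 2′-5′ oligoadenylate upon binding double-stranded RNA, was at 96.5 and 56.4 CPM against 194, 291 and 146 CPM and rose by 1.46 ± 0.29 SE (adjusted p = 0.0226). OAS3 rose by 1.03 (0.94, adjusted p = 0.0611 with the length trend removed), OAS1 by 0.83 and EIF2AK2, the kinase PKR, by 0.83. TMEM173, the DNA-sensing adaptor STING, was at 97.1 and 104 CPM against 76.2, 65 and 72.9 CPM and fell by 0.50 ± 0.11 SE (adjusted p = 0.0294). The 4 rising genes became 0 without either non-silencing library or without G2.

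Among 18 interferon receptors, kinases and factors, IRF7 rose alone, from 16 and 18.1 CPM to 26.5, 45.4 and 31.3 CPM (1.01 ± 0.24 SE, adjusted p = 0.0376), and the median was 0.06. Short of the threshold and named after their values were seen were STAT2 (0.37, adjusted p = 0.0651) and USP18, a brake on the receptor (0.92, adjusted p = 0.0583). The interferon genes themselves were hardly seen: IFNB1 had a total of 8 counts over the 5 libraries, IFNA1 had 2, and IFNE was at 0.167 to 0.465 CPM. In the class I antigen presentation list 1 of 21 genes rose, the peptide-trimming ERAP1 (0.46 ± 0.11 SE, adjusted p = 0.0456; 0.34, adjusted p = 0.064 with the length trend described below removed). HLA-B, also named after its value was seen, was at 167 and 115 CPM against 243, 313 and 186 CPM (0.81, adjusted p = 0.0772), and reads of HLA genes can be shared.

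The NF-kB pathway held more falls than rises. Of 26 subunits, kinases and feedback genes, 5 fell and 1 rose, against 1.64% and 2.47% of all genes tested. In this list 19 had a negative log2 fold change, and the median was -0.30. BIRC3, an inhibitor of apoptosis at the TNF receptor, was at 12 and 10.8 CPM against 4.29, 6.54 and 4.52 CPM and fell by 1.16 ± 0.25 SE (adjusted p = 0.0293). NFKBIZ, an atypical inhibitor in the nucleus, was at 15.1 and 15.3 CPM against 8.71, 5.85 and 7.64 CPM and fell by 1.04 ± 0.24 SE. NFKB2, the subunit of the alternative pathway, was at 35.8 CPM in both controls and at 24.3, 20.9 and 19.9 CPM with siGlut1, a fall of 0.72 ± 0.14 SE. TNIP1, a partner of the inhibitor A20, fell by 0.50, and the kinase CHUK by 0.44. The gene that rose was TRAF3, which holds back the alternative pathway, with 41.7 and 42.6 CPM against 56.9, 60.5 and 60.3 CPM (0.49 ± 0.08 SE, adjusted p = 0.0102). RELA, the main activating subunit, gave 0.05 (adjusted p = 0.794). The 5 that fell became 0 without either non-silencing library or G3, and 1 without G1 or G2.

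Of 32 chemokines and cytokines, 1 rose and 0 fell, 25 had a negative value, and the median was -0.57. The controls differed here: N1 was the highest of the 5 libraries for 20 of the 32 genes, N3 for 5 and G2 for 7. The riser was CCL5, an attractant of T cells, from 0.375 and 0.316 CPM to 0.792, 1.48 and 0.908 CPM (1.61 ± 0.40 SE, adjusted p = 0.0467). CCL2, the monocyte attractant, named after its value was seen, was at 93.4 and 50.5 CPM against 46.9, 20.9 and 17.8 CPM (-1.34 ± 0.62 SE, adjusted p = 0.245), so that G1 lay next to the lower control. Of 16 leukocyte adhesion genes 0 passed the threshold with edgeR, 1 higher and 4 lower had an unadjusted p under 0.05, and DESeq2 called 1 higher and 2 lower. N1 was the highest library for 10 of the 16, G2 for 3, and N3, G1 and G3 for 1 each. The 2 with most counts, MCAM (0.19, adjusted p = 0.0953) and PECAM1 (0.09, adjusted p = 0.764), were near level. ICAM1, named after its value was seen, was at 145 and 109 CPM against 75.2, 51.8 and 45.1 CPM (-1.15 ± 0.33 SE, adjusted p = 0.0772), without overlap.

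Antioxidant genes induced by the factor NRF2 fell in part. Of 36 tested, 8 fell and 0 rose, against 1.64% and 2.47% of all genes, 27 had a negative value, and the median was -0.22. NQO1, a quinone reductase (chr16:69743304-69760533, hg19), was at 385 and 355 CPM in the controls and at 237, 238 and 221 CPM with siGlut1. All 3 siGlut1 libraries were alike, and the fall was 0.67 ± 0.07 SE (adjusted p = 0.00162). PIR, an iron-binding nuclear protein (chrX:15402924-15511711, hg19), was at 70.7 and 75.1 CPM against 36.1, 34.5 and 37.5 CPM and fell by 1.02 ± 0.13 SE (adjusted p = 0.00415). ABCC3, an efflux pump for conjugates, fell by 1.43 from 2.75 and 3.36 CPM to 1.21, 1.14 and 1.06 CPM. The carbonyl reductase CBR3 fell by 0.59 (-0.50, adjusted p = 0.0634 with the length trend removed), thioredoxin reductase TXNRD1 by 0.45 and sulfiredoxin SRXN1 by 0.34. TKT, transketolase of the pentose phosphate pathway, fell by 0.38. The 8 became 2 and 1 without N1 and N3, and 3, 3 and 2 without G1, G2 and G3.

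The promoter of PIR is shown with the antioxidant response element, which NRF2 binds, searched as TGACNNNGC on both strands. Of 26 NRF2 targets with a promoter, 7 held the letters (26.9%), against 13.3% of all promoters and 14.9% of the tested genes with one, and 2 of the 5 that fell and had a promoter did. In PIR (chrX:15493284-15493583 on the minus strand) the match begins 26 bases after the start on the opposite strand.
PIR: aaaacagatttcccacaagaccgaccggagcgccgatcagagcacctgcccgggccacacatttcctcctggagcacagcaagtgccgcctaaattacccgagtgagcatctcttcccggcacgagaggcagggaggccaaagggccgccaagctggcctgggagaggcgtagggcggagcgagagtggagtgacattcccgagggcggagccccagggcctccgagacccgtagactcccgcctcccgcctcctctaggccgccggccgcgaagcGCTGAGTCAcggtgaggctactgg

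The list of glutathione transferases and peroxidases also held SELENBP1, which is neither. In it 5 of 24 fell and 0 rose, against 1.64% and 2.47% of all genes, with a median of -0.25. With the length trend removed 2 fell, GSTM4 and SELENBP1, and the median was -0.18. GSTM4, a glutathione transferase, was at 4.71 and 4.82 CPM against 1.79, 2.03 and 2.22 CPM and fell by 1.24 ± 0.15 SE (adjusted p = 0.00289), with close relatives that could share its reads. SELENBP1, a selenium-binding methanethiol oxidase, was at 10.6 and 9.8 CPM against 5.38, 3.65 and 4.23 CPM and fell by 1.21 ± 0.16 SE. MGST2, GSTZ1 and GSTO1 fell by 0.49, 0.46 and 0.34, and these 3 calls ended with the length trend removed (-0.40, -0.40 and -0.26, adjusted p = 0.053, 0.08 and 0.065). In the pentose phosphate, polyol and glyoxalase list 3 of 13 fell, against 1.64% of all genes. GLO1, which clears methylglyoxal, was at 261 CPM in both controls and at 187, 183 and 170 CPM with siGlut1 (-0.54 ± 0.07 SE, adjusted p = 0.00415). TKT was at 803 and 793 CPM against 612, 611 and 611 CPM. The 3 became 0 without either non-silencing library.

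Of 11 glucose transporters tested SLC2A1 alone passed the threshold. SLC2A3 (Glut3) was at 67.3 and 60 CPM against 73.8, 66.4 and 71.2 CPM, SLC2A12 at 4.88 and 5.61 CPM against 6.63, 6.47 and 6.78 CPM and SLC2A6 at 27 and 38.4 CPM against 25.2, 28.2 and 28.6 CPM, all named after their values were seen (0.15, 0.34 and -0.26, adjusted p = 0.317, 0.174 and 0.371). Of 21 glycolysis and lactate genes 0 passed with edgeR (2 higher and 2 lower at an unadjusted p under 0.05, 1 higher with DESeq2), and the median was 0.05. GAPDH was at 4286 and 4521 CPM against 4552, 4594 and 4805 CPM, and ENO1 gave -0.04 (adjusted p = 0.833). In the glycogen and hexosamine list of 16, glycogen synthase GYS1 rose by 0.30 ± 0.07 SE, while glycogen phosphorylase PYGL (-0.40), phosphoglucomutase PGM1 (-0.38) and N-acetylglucosamine kinase NAGK (-0.51) fell.

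Among 9 genes that answer to glucose through the factor MondoA, TXNIP, an arrestin relative that limits glucose uptake, was at 304 and 226 CPM against 150, 94.6 and 100 CPM and fell by 1.21 ± 0.30 SE (adjusted p = 0.0494). That p lies at the threshold and was 0.056 with the length trend removed. Its relative ARRDC4, named after its value was seen, was at 3.38 and 1.66 CPM against 1.25, 1.03 and 1.2 CPM (-1.12, adjusted p = 0.119), with N3 near the siGlut1 libraries. MLXIP, which encodes MondoA itself, rose from 109 and 110 CPM to 165, 158 and 168 CPM (0.58 ± 0.10 SE, adjusted p = 0.0118). The list's median was -0.35.

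Amino acid metabolism changed at a few genes. ASNS, asparagine synthetase (chr7:97481429-97501854, hg19), was at 31.6 and 28.2 CPM against 13.2, 17.3 and 13.8 CPM and fell by 1.02 ± 0.13 SE (adjusted p = 0.00297). Of 27 targets of the stress factor ATF4 and serine synthesis genes it and SHMT2 (-0.29) fell, 0 rose, and the median was -0.02. The promoter of ASNS is shown because ATF4 binds it through a C/EBP-ATF element, searched as TGATGNAA, which 3.62% of all promoters and 3 of 22 targets held (13.6%). The match in ASNS (chr7:97872359-97872658 on the minus strand) begins 68 bases before the start, in capitals.
ASNS: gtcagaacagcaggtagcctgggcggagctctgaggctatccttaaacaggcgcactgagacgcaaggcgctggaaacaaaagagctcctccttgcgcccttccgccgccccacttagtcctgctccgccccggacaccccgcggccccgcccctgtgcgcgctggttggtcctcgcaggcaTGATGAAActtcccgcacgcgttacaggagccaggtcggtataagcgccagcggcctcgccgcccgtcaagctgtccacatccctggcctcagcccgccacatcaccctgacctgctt

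Of 24 amino acid transporters 2 rose and 3 fell, against 2.47% and 1.64% of all genes. SLC7A8, a carrier of large neutral amino acids, was at 4.5 and 4.42 CPM against 2.33, 1.45 and 2.17 CPM and fell by 1.17 ± 0.23 SE. The taurine transporter SLC6A6 was at 96.3 and 101 CPM against 73, 62.5 and 61.5 CPM and fell by 0.59 ± 0.12 SE, and the glutamate carrier SLC1A1 fell by 0.33. SLC7A2, a carrier of arginine, rose by 0.91 ± 0.20 SE, with G2 the highest at 58.2 CPM, and SLC7A6 by 0.39 ± 0.07 SE. Of 20 aminoacyl-tRNA synthetases 0 passed with edgeR, 0 at an unadjusted p under 0.05 and 0 with DESeq2. Of 20 endoplasmic reticulum chaperones and sensors ERN1 rose (0.47) and HERPUD1 fell (-0.28), both calls ending with the length trend removed (adjusted p = 0.052 and 0.059).

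FABP4, a fatty acid binding protein of capillary endothelium, was at 13.4 and 15.9 CPM against 32.7, 27.9 and 36.6 CPM and rose by 1.15 ± 0.17 SE (adjusted p = 0.00706). FABP5 rose from 203 and 178 CPM to 273, 237 and 264 CPM (0.44 ± 0.09 SE), and the lipid droplet coat protein PLIN2 by 0.39 ± 0.08 SE. These 3 of 26 rose and 0 fell, against 2.47% and 1.64% of all genes, with a median of 0.00377. In cholesterol synthesis and uptake 2 of 24 fell and 0 rose: HMGCS1, at 80.8 and 78 CPM against 55.6, 57.9 and 52.1 CPM (-0.53 ± 0.07 SE, adjusted p = 0.00447), and FDFT1, at 219 and 213 CPM against 158, 169 and 164 CPM (-0.40).

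Mitochondrial and ribosomal genes, most of which are short, had small negative values in bulk. In complex I 0 of 38 passed the threshold with edgeR (11 lower at an unadjusted p under 0.05, 4 lower with DESeq2) while 34 were negative, with a median of -0.15. In complexes III to V UQCRQ fell alone of 32 (71.7 and 72.5 CPM against 49.4, 56.2 and 59.5 CPM, -0.39 ± 0.08 SE), and 31 were negative with a median of -0.16. Of 73 mitochondrial ribosomal proteins 0 passed with edgeR, 14 were lower at an unadjusted p under 0.05 and 3 with DESeq2 (median -0.10), and of 78 cytosolic ones RPL17, RPL5 (-0.33) and RPL4 (-0.28) fell (median -0.13). G1 was the lowest of the 5 libraries for 30 of 38, 26 of 32, 47 of 73 and 49 of 78 of these genes. With each library's trend on length removed, the 4 medians were -0.04, -0.05, -0.02 and -0.03. In the TCA cycle list of 30, the aconitase ACO1, which also regulates iron, fell by 0.39 and SDHC of complex II by 0.31 (-0.29, adjusted p = 0.0727 with the length trend removed). The calls of RPL5 and RPL4 also ended there (adjusted p = 0.112 and 0.183).

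In the angiogenic list 5 of 24 genes rose and 0 fell, against 2.47% and 1.64% of all genes, with a median of 0.27. FLT1, the decoy-like VEGF receptor 1, was at 173 and 189 CPM against 280, 332 and 284 CPM and rose by 0.72 ± 0.12 SE (adjusted p = 0.0113). KDR, the main signalling receptor for VEGF, was at 502 and 470 CPM against 702, 652 and 626 CPM and rose by 0.44 ± 0.11 SE (adjusted p = 0.0479). Both transcripts are long, and both calls ended with the length trend removed (0.50 and 0.37, adjusted p = 0.066 and 0.075). PGF, placental growth factor and a ligand of FLT1, rose by 0.53, the tip-cell chemokine receptor CXCR4 from 14.3 and 15.8 CPM to 23, 24.2 and 25.9 CPM (0.70 ± 0.10 SE, adjusted p = 0.00494), and IGFBP3, which binds insulin-like growth factors, from 1.17 and 1.03 CPM to 2.71, 3.96 and 3.19 CPM (1.58 ± 0.27 SE). These 3 kept their calls there. The 5 became 0 without either non-silencing library.

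Matrix and mesenchymal genes gave 4 rises of 24 and 0 falls, against 2.47% and 1.64% of all genes, with a median of 0.20. TAGLN, which binds actin in smooth muscle, was at 2.92 and 3.04 CPM against 8.42, 7.44 and 8.95 CPM and rose by 1.47 ± 0.28 SE (adjusted p = 0.0193). The growth factor TGFB2 rose by 0.76 ± 0.18 SE (0.69, adjusted p = 0.0533 with the length trend removed), its receptor TGFBR1 by 0.65 ± 0.13 SE and N-cadherin, CDH2, by 0.74 ± 0.13 SE, from 83.6 and 80.7 CPM to 124, 153 and 134 CPM. Of 30 collagens, laminins and basement membrane genes 1 rose and 0 fell, with a median of 0.29. Among proteinases MMP16 (0.56) and MMP10 (0.61) rose and the inhibitor TIMP1 fell by 0.36, from 163 and 155 CPM to 122, 122 and 127 CPM, a call that ended with the length trend removed (-0.25, adjusted p = 0.088). The syndecan SDC2 rose by 0.59. The 4 matrix genes became 0 without either non-silencing library, and 2, 1 and 1 without G1, G2 and G3.

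Barrier and vessel identity genes had few members past the threshold. Of 16 tight junction genes CLDN11 fell alone, from 757 and 768 CPM to 561, 553 and 582 CPM (-0.43 ± 0.09 SE, adjusted p = 0.0293). CLDN5, the main claudin of brain capillaries, named after its value was seen, was at 63.9 and 72.6 CPM against 59.7, 57.3 and 64.6 CPM (-0.17, adjusted p = 0.812). Of 16 efflux pumps ABCC3 fell and ABCC5 rose (0.38; 0.28 with the length trend removed, adjusted p = 0.17), and of 18 genes of caveolae and transcytosis 0 passed with edgeR (2 higher and 1 lower at an unadjusted p under 0.05, 1 higher with DESeq2). Of 21 lineage factors FLI1, an ETS factor, fell by 0.53 from 279 and 271 CPM to 215, 175 and 181 CPM, HHEX by 0.47, and ETS1 rose by 0.31. In Wnt signalling AXIN2, a feedback target of beta-catenin, rose from 1.63 and 1.54 CPM to 2.71, 2.93 and 3.26 CPM (0.91 ± 0.18 SE), and the Norrin receptor FZD4 by 0.38. The Notch ligand JAG1 rose by 0.35 and the BMP receptor ACVR1 by 0.29. The FZD4 and JAG1 calls, and that of ETS1, ended with the length trend removed (adjusted p = 0.064, 0.061 and 0.082). THBD, thrombomodulin, rose from 15.4 and 14.6 CPM to 29.1, 25.8 and 27.3 CPM (0.87 ± 0.16 SE), and the inhibitor TFPI2 by 1.17 ± 0.28 SE.

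In growth and turnover, 0 of 35 replication genes, 0 of 31 proteasome subunits, 0 of 23 autophagy genes and 0 of 19 hypoxia genes passed in either direction with edgeR. At an unadjusted p under 0.05 the numbers were 0, 2, 3 and 7, and DESeq2 called 0, 0, 0 and 4. CDC25B, a phosphatase that starts mitosis, fell alone of 35 mitosis genes (-0.38 ± 0.08 SE), with a list median of -0.14. The p53 targets SESN1 (-0.38) and DDB2 (-0.31; -0.26, adjusted p = 0.0645 with the length trend removed) fell, 2 of 22. Of 30 lysosomal genes the cathepsin CTSS fell from 28.6 and 20.9 CPM to 14.4, 13.7 and 10.2 CPM (-0.96 ± 0.22 SE), while CTSB, at 1140.5 and 1049.3 CPM against 1502, 1449 and 1453 CPM, rose by 0.42 ± 0.08 SE and CTSC by 0.33 (0.22, adjusted p = 0.198 with the length trend removed). KLF6 rose alone of 20 immediate early genes (0.45 ± 0.07 SE, adjusted p = 0.0105). Among markers of other cells ANPEP (0.38), TUBB3 (0.66), CNP (0.33; 0.28, adjusted p = 0.0847 with the length trend removed) and RELN rose. Other members of some of these lists were lower with siGlut1, such as RGS5 (means of 2387 against 1870 CPM) and SNAP25 (0.346 against 0.147 CPM). The tested pericyte and smooth muscle markers had 4 positive and 3 negative values, neuron markers 3 and 2, oligodendrocyte markers 1 and 1 and lymphatic markers 4 and 0. The summed levels of the neuron markers were 116.8 to 136.5 CPM with non-silencing siRNA and 150.3 to 180.6 CPM with siGlut1, those of the oligodendrocyte markers 167.4 to 170.7 and 205 to 220.2 CPM, and those of the lymphatic markers 153.5 to 161.2 and 216.8 to 285.3 CPM. Of the lymphatic markers, LYVE1 ranged from 97.7 to 186 CPM, FLT4 from 24.5 to 40.7 CPM and PROX1 from 5.1 to 8.59 CPM. The neuron markers SYT1 and MAP2 ranged from 39.6 to 46.7 and 23.7 to 34.8 CPM, and the oligodendrocyte marker MBP from 7.88 to 9.57 CPM. STMN2, MAG, OLIG1, PDPN and CCL21 of these lists had 0 counts in all 5 libraries, and the source of the rising transcripts was not tested.

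**Figure D3:**
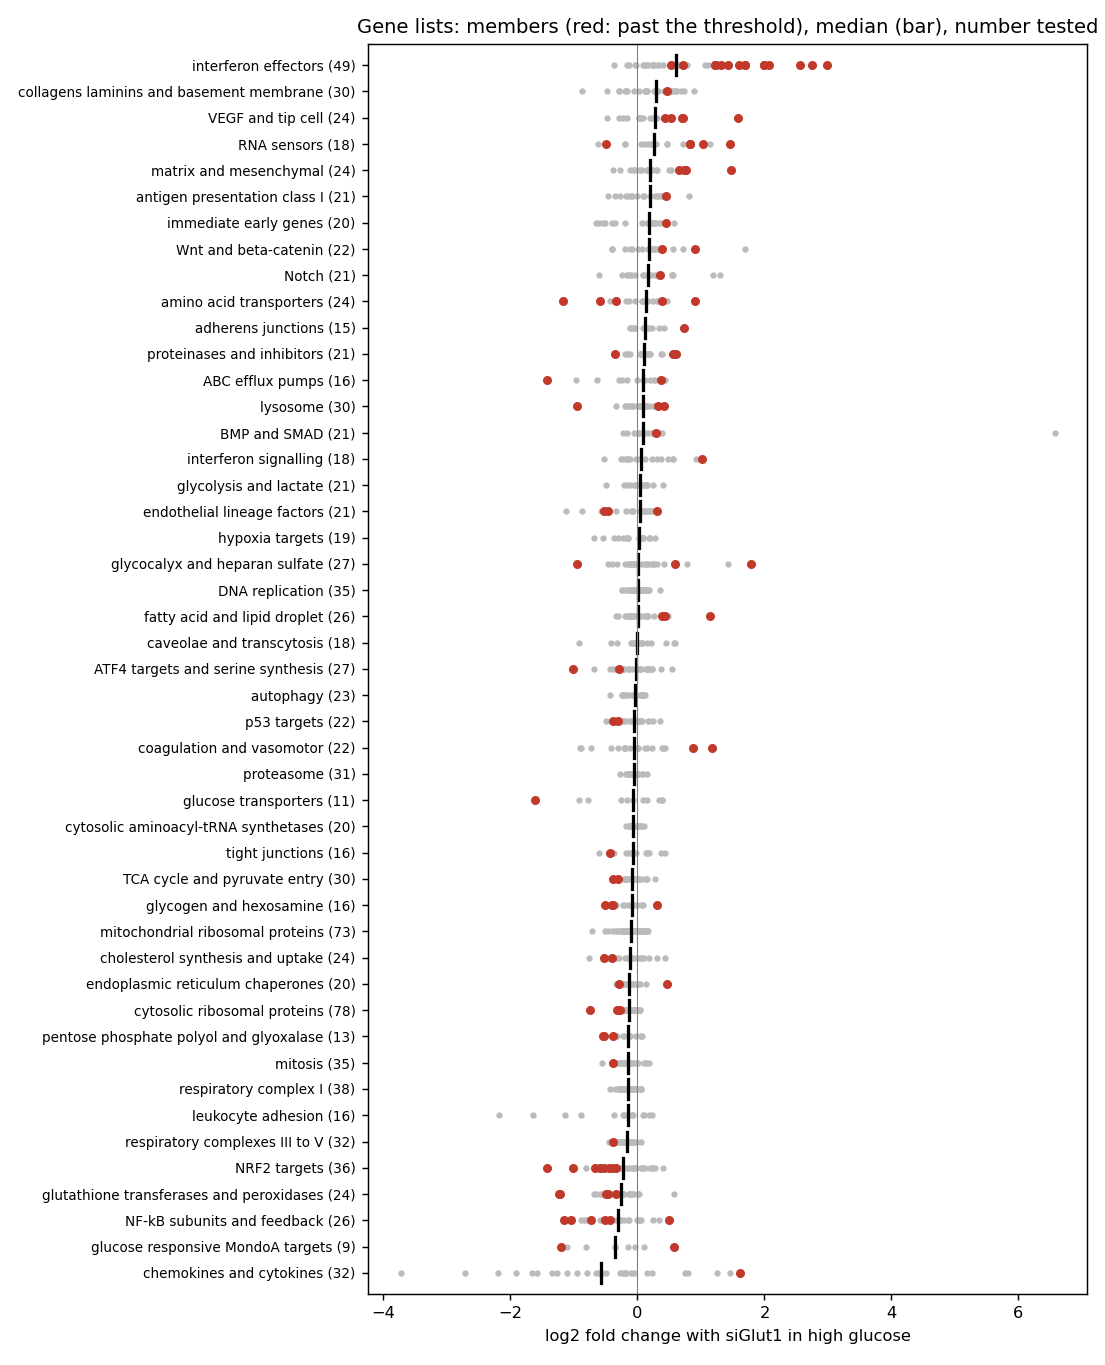
log2 fold change with siGlut1 in high glucose of each tested member of the gene lists (points; red where past the threshold), with the median as a black bar and the number tested in brackets, lists ordered by median. Interferon effectors have the highest median, 0.61, and chemokines and cytokines the lowest, -0.57; the far point of the BMP list is GREM1, which had 0 counts in both non-silencing libraries.

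Fold changes went with transcript length. The length column of the table is labelled as coding length, but 35.1% of its values are multiples of 3, so it is not coding sequence alone. Across the 14324 genes, Spearman's rho between length and log2 fold change was 0.24 in high glucose and -0.06 in control glucose. This is a description across genes that share the same 5 libraries and are not independent replicates. The median log2 fold change went from -0.10 in the shortest of 5 equal groups of genes (54 to 1722 bases) over -0.04, -0.01 and 0.03 to 0.10 in the longest (5195 bases and above). Genes that rose numbered 23, 43, 42, 96 and 150 over these groups, and genes that fell 65, 59, 51, 41 and 19. The median length was 4514 bases for genes that rose, 2437 for those that fell and 3031 for all. The trend was weakest for genes of low level, with a rho of 0.10, 0.29 and 0.37 in 3 equal groups of low, middle and high mean CPM.

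The libraries differed in this trend. The rho with length of a library's deviation from the mean of the 5 was 0.35 in G1, 0.08 in G2, -0.02 in G3, -0.11 in N1 and -0.28 in N3. Each of the 6 differences of a siGlut1 library from a non-silencing library had a positive rho, from 0.06 to 0.34, and that between both non-silencing libraries was -0.13. The rho over the fit was 0.14 without N3 and 0.17 to 0.27 without any other library of the 5. With each library's trend removed, the rho was 0.0042, 288 genes rose (2.01%) and 222 fell (1.55%), and these kept 262 of the 354 and 168 of the 235. Among genes of at least 2 CPM, TNRC6B, an RNA silencing protein and the longest gene that rose (18695 bases), went from 0.42 (adjusted p = 0.0451) to 0.09 (adjusted p = 0.627), and the signalling scaffold KSR2 from 1.23 to 0.93 (adjusted p = 0.0532). LPP, an actin-linked adhesion protein of 18482 bases, was at 88.5 and 77.8 CPM against 157, 160 and 112 CPM and kept its call at 0.44. The shortest genes that fell, the copper chaperone COX17 (-0.73), IFI27L2 (-0.62) and PTRHD1 (-0.59), kept theirs at -0.60, -0.48 and -0.47. The interferon effectors, with a median length of 3091 bases, had 17 rises and a median of 0.62 there, and the NRF2 targets 7 falls and a median of -0.14.

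**Figure D4:**
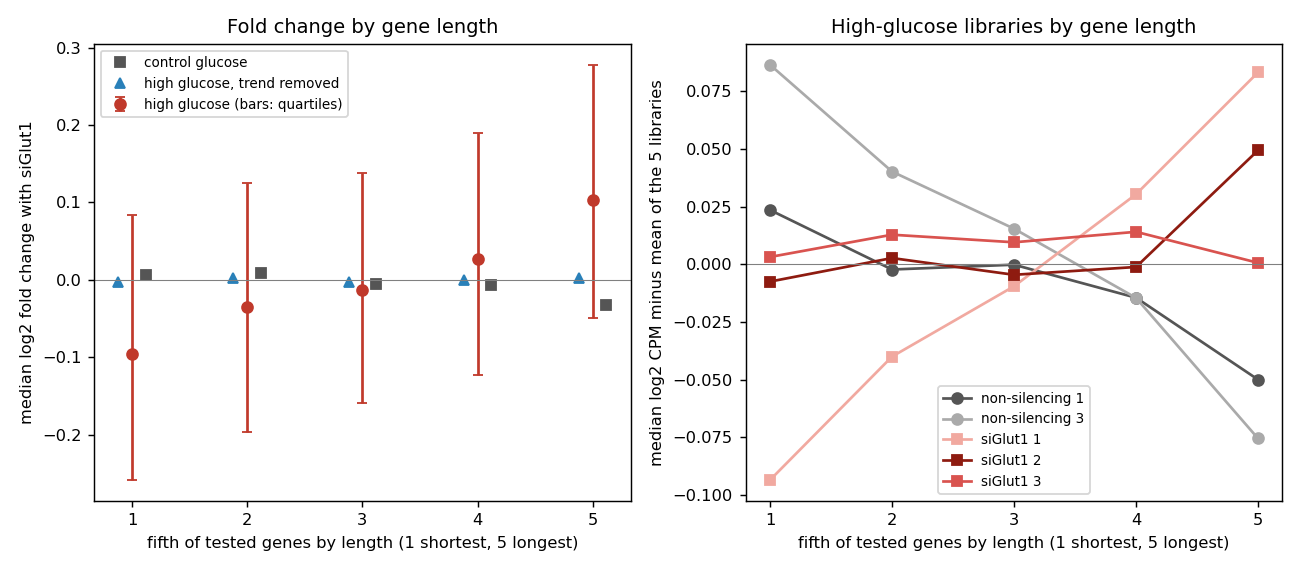
Left, median log2 fold change with siGlut1 in 5 equal groups of tested genes by length, in high glucose (red, bars are quartiles), in control glucose (grey) and in high glucose with each library's length trend removed (blue). Right, median log2 CPM of each high-glucose library minus the mean of the 5, by the same groups. The red medians go from -0.10 to 0.10, and G1 and N3 have the steepest opposite slopes.

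The effect of siGlut1 was set beside the same comparison in control glucose, which uses other libraries, 3 against 3. There 424 genes passed the threshold (2.96%), 244 higher (1.7%) and 180 lower (1.26%), and 260 genes passed in both media in the same direction, 156 higher and 104 lower, 44.1% of the calls in high glucose and 61.3% of those in control glucose. None passed in opposite directions. Of the 589, 586 had the same sign in control glucose, as did 73.5% of all genes tested, and 517 had the larger size in high glucose, the medium in which they were selected. The difference between media went with transcript length as well, with a Spearman's rho of 0.39 across genes. It was tested as an interaction: 0 genes passed with edgeR and 0 with DESeq2, with 394 (2.75%) and 455 at an unadjusted p under 0.05. With the length trend removed, edgeR gave 195 at that unadjusted p, and 0 passed.

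No gene can therefore be called particular to high glucose from these libraries. TXNIP gave -1.21 in high and -0.40 in control glucose, a difference of -0.81 ± 0.41 SE, and RELN gave 1.73 and 0.77, a difference of 0.96 ± 0.37 SE. For VCAN the values were 1.79 and 1.01. The differences were -0.36 ± 0.10 SE for HMGCS1 (-0.53 and -0.17), 0.43 ± 0.13 SE for CXCR4 (0.70 and 0.27), 0.68 ± 0.20 SE for MMP10 (0.61 and -0.07) and -0.37 ± 0.11 SE for UQCRQ (-0.39 and -0.02). MX1 gave 1.99 and 1.96, a difference of 0.03 ± 0.41 SE, and IFITM1 2.07 and 2.05, a difference of 0.02 ± 0.61 SE. SLC2A1 gave -1.61 and -1.58, a difference of -0.03 ± 0.19 SE. The adjusted interaction p of each of these genes was 0.999 in edgeR.

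**Figure D5:**
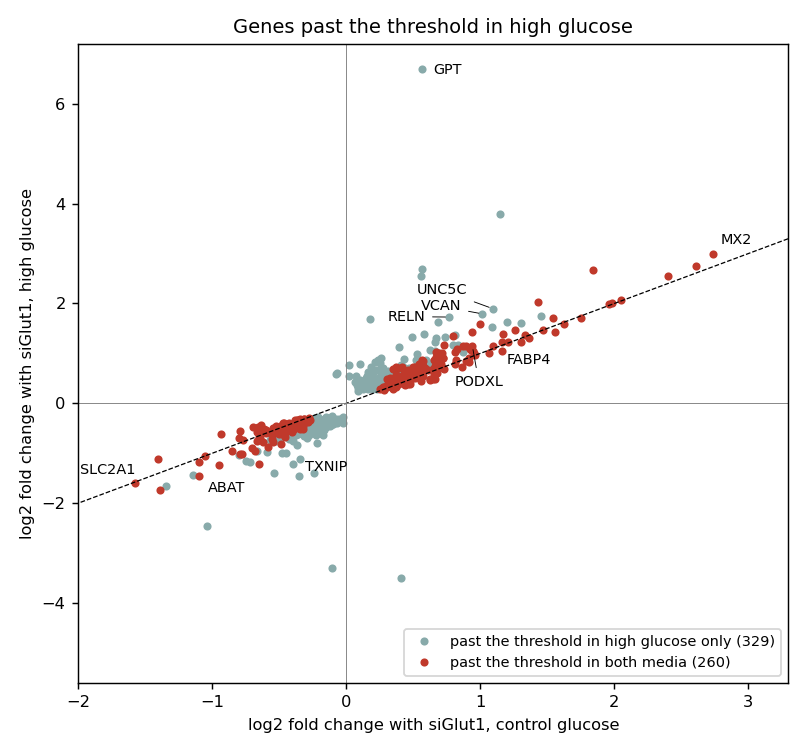
log2 fold change with siGlut1 in control glucose (x axis) against high glucose (y axis) for the 589 genes past the threshold in high glucose, red where they also passed in control glucose (260), with the line of equal change dashed. Most points lie on the same side of 0 in both media and further from 0 in high glucose, where they were selected; GPT, at the top, had 0 counts in both non-silencing libraries.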

How the data were processed

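The authors deposited 1 table with a raw read count and an RPKM value per gene and library, with gene positions and a length in bases, per the file headers. The build hg19 and the tool DESeq2 are named in the submitters' processing notes. The sources used here do not give the aligner, the counter or the use of strand. Overlapping and antisense genes therefore cannot be told apart. RPKM values served to check columns, and 0 columns lacked a sample. All deposited counts used are even numbers, so halved counts were run as an alternative chosen after seeing the data. Of 23398 entries, 124 that are Y-linked or XIST were left out.

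Counts of 11 libraries (4 groups) were filtered with filterByExpr, scaled by TMM and fitted in edgeR 4.0.16 (R 4.3.3, limma 3.58.1) by quasi-likelihood, with 14324 genes tested and DESeq2 1.42.0 as an alternative. All groups share 1 estimate of the spread, with 7 residual degrees of freedom. CPM and the length trend (lowess, span 0.3, per library) were computed here. On simulated data of 14288 genes, the high-glucose comparison recovered 35.8% of 1.5-fold, 74.6% of 2-fold and 84.8% of 4-fold changes and called 0.0355% of unchanged genes. These shares rest on 67, 67 and 66 changed genes above a floor of counts. The counts were drawn gene by gene with the fitted spread, without the length trend or other differences shared by many genes of a library. The shares may therefore not hold for these libraries.

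The members and the 56 lists were chosen with earlier results of these data known. Genes were named by rule: SLC2A1; among called genes of at least 2 CPM without overlap, the 12 largest rises and falls and the 6 smallest p per direction; up to 4 called members per list (otherwise the 2 with most counts); and the 3 longest that rose and 3 shortest that fell. Other genes were named outside this rule, and many of them are said to be chosen after their values were seen. List members such as ISG15, TMEM173, TRAF3, CHUK, RELA, IFIT3, BST2, GBP2 and IFNE are not so marked. Alternatives were the replicate block, DESeq2, its size factors, other filters, other sets of libraries, the length trend removed and each high-glucose library left out. Some members counted in the lists are not reported here by name.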

Additional observations from a re-analysis of the deposited data

How the results depend on the processing

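With 354 genes higher and 235 lower as reported, DESeq2 gave 734 and 531 (583 of the 589 shared) and the high-glucose groups alone 619 and 538. The fit without both control-glucose libraries numbered 3 gave 898 and 774, and all 12 deposited columns 1010 and 797. That last fit counts the mean of N1 and N3 as a further control library, though it holds no measurement of its own. The cause of the differing counts was not tested. Leaving out 1 high-glucose library gave 2 to 167 higher and 4 to 94 lower, with fewer samples in each fit. The share of calls that were higher, 60.1%, ranged from 33.3% (N3 left out) to 70.8% (G3 left out). The gene length trend, a rho of 0.24, was 0.0042 with the trend removed, by construction, and 0.139 to 0.274 without 1 library, lowest with N3 left out. In high glucose 2 pairs shared a replicate number, with correlations of deviations of 0.43 and 0.38 against -0.43 to 0.14 for the other pairs. With 2 non-silencing libraries, N1 and N3 deviate equally and oppositely from their mean, so each value with N3 is minus that with N1. The other pairs are therefore no independent comparison. The labels do not say what a number marks, and whether it pairs the samples was not settled. The fit with the replicate block gave 353 higher and 247 lower, 467 shared with the 589. Counts halved gave 353 and 249. Among the 117 named genes past the threshold, 17 lost the call under the replicate block (OAS3, OAS1 and CTSC among them). With the length trend removed 25 lost it, and without a filter 12 did. The call was lost by 6 with DESeq2's size factors, 5 with halved counts and 0 with DESeq2. None reversed in any of these. With 2 control libraries, small changes can be missed. The check in the processing section recovered 35.8% of 1.5-fold changes. It used simulated counts without a length trend or other differences shared by many genes, so this share may not hold for these libraries.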
